A study of Mus musculus with 2 samples.

Results

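Transitional cells were 390 of the 9185 mouse thymic epithelial cells that the authors placed in 1 of 15 named classes, and they were taken here by that deposited class name alone. They came from all 7 samples of the study: 23, 27 and 91 cells in the 3 control samples, and 54, 50, 59 and 86 cells in the 4 mutant samples. The data are single-cell RNA counts (unique molecular identifiers, UMIs, 1 per captured RNA molecule) from mTEC, the epithelial cells of the thymic medulla, in the C57BL/6 strain. The cells were sorted as mTEClo, the fraction with low surface MHC class II, without Pdpn or CD104 on the surface and after magnetic removal of CD45+ cells. All samples were read together in 1 droplet run that primes on the 3' ends of RNA. The control group, Hnf4ctrl, carried Foxn1(cre/+), Hnf4a(fl/+) and Hnf4g(+/-). The mutant group, Hnf4dTEC, carried Foxn1(cre/+), Hnf4a(fl/fl) and Hnf4g(-/-). Foxn1-cre, which acts in thymic epithelium, is thus present in both groups, and the controls also carry 1 floxed copy of Hnf4a and 1 null copy of Hnf4g. The labels give no age, nor do they state that the 7 tagged samples were different animals. The p-values therefore measure only the spread between these samples, which may be technical.

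Medullary thymic epithelial cells show developing T cells the proteins of other tissues. Immature mTEC express the chemokine Ccl21a and basal keratins. They give rise to dividing, transit-amplifying (TA) cells and then to cells that express Aire, a nuclear regulator that switches on many tissue-restricted genes. Later cells, the mimetic cells, take on the programmes of tuft, gut, muscle, skin and other peripheral cell types, each under its own lineage factor. Hnf4a and Hnf4g are nuclear receptors that direct gene programmes of gut and liver epithelium.

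Each cell was assigned to its sample by a DNA-tagged antibody against H2-Kb, an MHC class I protein. The tag sequences are shown because every comparison by genotype rests on them, and because the tag counts also give a reading of surface H2-Kb. Each is 15 bases long, 5′ to 3′, as the labels give it.
HT1, Hnf4ctrl 1: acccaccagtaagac
HT2, Hnf4ctrl 2: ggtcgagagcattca
HT3, Hnf4ctrl 3: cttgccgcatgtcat
HT5, Hnf4dTEC 1: ctttgtctttgtgag
HT6, Hnf4dTEC 2: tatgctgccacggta
HT8, Hnf4dTEC 3: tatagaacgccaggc
HT9, Hnf4dTEC 4: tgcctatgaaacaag
In 3 of the 390 Transitional cells the most abundant tag was that of another sample. The doublet caller Scrublet marked 8 Transitional cells (2.05%). No cell barcode was listed more than once.

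The sums over Transitional cells held 344849 to 1789813 UMIs per sample. The median cell held 19911 UMIs and 4769.5 genes, the third highest UMI median of the 15 classes, against 25336 UMIs in TA, 18154 in Aire-expressing and 8083 in Immature cells. Levels are given as CPM, the UMIs of a gene per 1000000 UMIs of the class in a sample, averaged over the 7 samples ± SD. Since the authors made the classes from these same genes, differences between classes are described without a test. Shares of cells are given after every cell was thinned to 5000 UMIs, which kept 382 Transitional cells.

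The class name was checked against marker lists. Transitional cells carried the general epithelial genes Epcam (835 ± 54 CPM) and Krt8 (897 ± 122 CPM), and the thymic epithelial regulator Foxn1 (68.3 ± 10.8 CPM). The 11 thymocyte markers summed to 0 to 25 CPM per sample and the 10 myeloid or B cell markers to 22 to 85 CPM. The fibroblast list summed to a mean of 14.4 CPM and the endothelial list to 7.6 CPM. No marker list for a transitional state was available, and the name itself is kept as the authors' own.

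Transitional cells combined genes of immature mTEC with genes of the Aire stage, at levels between those of the classes on either side. Ccl21a, the chemokine that draws T cells into the medulla, stood at 1586, 1653 and 794 CPM in the controls and 876, 1350, 720 and 812 CPM in the mutant samples. Its mean of 1113 ± 403 CPM lay far below the 11009 CPM of Immature cells and above the 137 CPM of TA and 172 CPM of Aire-expressing cells. Ccl21a has near-identical gene copies in the mouse, so the copy from which these UMIs came is uncertain. Krt5, a basal keratin, stood at 283 ± 85 CPM, between 1850 CPM in Immature and 130 CPM in TA or 32.9 CPM in Aire-expressing cells. Krt14, its usual partner, stood at 315 ± 71 CPM against 1131 CPM in Immature cells. The 9 genes of the immature mTEC list summed to 2095 ± 548 CPM, 13.1% ± 3.2 of the Immature sum, 247% ± 60 of the TA sum and 275% ± 67 of the Aire-expressing sum. It was below Immature cells in 7 of 7 samples and above both other classes in 7 of 7 samples.

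Aire itself (chr10:78030022-78043610, mm10, minus strand, protein coding) stood at 304, 323 and 431 CPM in the control group and 401, 305, 384 and 353 CPM in the mutant samples. The 2 groups overlapped. The mean of 357 ± 50 CPM was the third highest of the 15 classes, after Aire-expressing (764 ± 23 CPM) and TA cells (439 ± 66 CPM), and the ranges of TA and Transitional cells overlapped. Immature cells had 13.0 ± 6.3 CPM. Fezf2, a second regulator of tissue-restricted genes, stood at 465 ± 55 CPM, Cd80 and Cd40, which signal to T cells, at 58.6 ± 11.4 and 76.0 ± 16.3 CPM. The Aire-stage list of 8 genes summed to 1289 ± 133 CPM, 262% ± 30 of the Immature sum, 103% ± 15 of the TA sum and 67.9% ± 7.1 of the Aire-expressing sum. The sum was above that of TA cells in 3 of 7 samples, and only 2 of the 8 genes were higher than in TA cells.

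**Figure D1:**
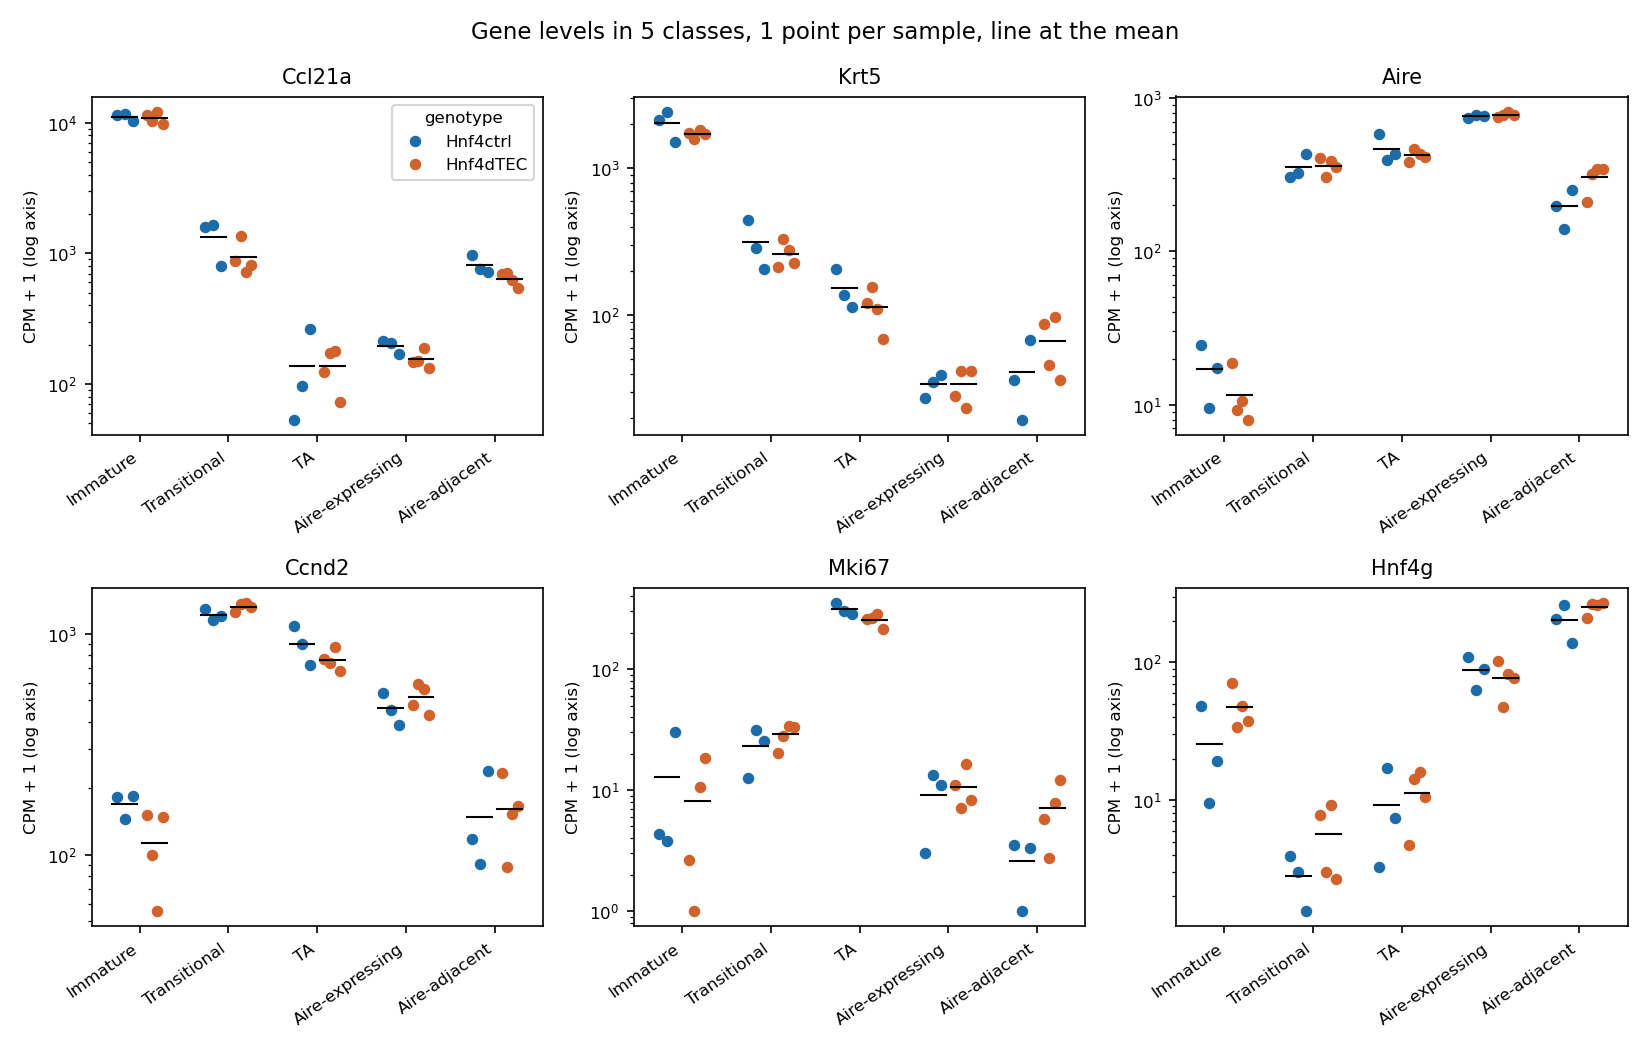
Level of 6 genes (CPM + 1, log axis) in 5 classes, with 1 point per sample, coloured by genotype, and a line at each group's mean. Transitional cells sit between Immature and Aire-expressing cells for Ccl21a, Krt5 and Aire, hold the highest Ccnd2 and the lowest Hnf4g, and have little Mki67 beside TA cells.

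At 5000 UMIs per cell, an Aire UMI was found in 62.0% of Transitional cells, 78.5% of TA cells, 85.5% of Aire-expressing cells and 6.9% of Immature cells. Tuft cells gave 5.4%, Keratinocyte cells 8.7% and Neuroendocrine cells 11.7%, so the Immature share lay within the range of these mimetic classes. Whether free RNA accounts for such shares was not tested. Before thinning the shares were 85.6% in Transitional and 12.7% in Tuft cells, at median depths of 19911 and 12186 UMIs. A Ccl21a UMI was found in 48.4% of Transitional cells, 47.5% of Aire-adjacent cells, 100% of Immature cells, 27.7% of Aire-expressing cells, 21.1% of TA cells and 6.6% of Tuft cells. Krt5 was found in 47.6% of Transitional, 27.3% of TA, 9.8% of Aire-expressing and 2.9% of Tuft cells.

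The 2 programmes overlapped in part within single Transitional cells. Of 382 thinned cells, 82 (21.5%) held a UMI of both Aire and Ccl21a, 155 held Aire alone, 103 Ccl21a alone and 42 neither. Both were held by 23.2% of Aire-expressing, 13.6% of TA and 6.9% of Immature cells. Ccl21a was found in 34.6% of the cells with Aire and in 71.0% of the cells without it. In TA cells the same shares were 17.4% and 34.7%, and in Aire-expressing cells 27.1% and 31.2%. Per cell, the immature mTEC list gave a median of 5 UMIs and a 90th percentile of 32 in Transitional cells, against 3 and 9 in TA cells and 80 and 134 in Immature cells. These gene pairs were chosen after their levels were seen, and cells of 1 sample are not replicates.

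Cell cycle genes of the proliferation list separated Transitional from TA cells by phase. The 10 S phase genes of the proliferation list, which serve DNA replication, summed to 496 ± 83 CPM in Transitional cells, 79.8% ± 11.6 of the TA sum. This sum was above that of TA cells in 0 of 7 samples, and 5 of the 10 genes were higher than in TA cells. Mcm5, for one, was found in 12.3% of thinned Transitional cells and 16.4% of TA cells. Mcm2 (31.0 against 14.8 CPM), Mcm3 (44.4 against 36.9), Mcm4 (41.0 against 29.3) and Mcm6 (64.1 against 46.1), subunits of the helicase that licenses replication, had their highest level of all 15 classes in Transitional cells, and Pcna, the sliding clamp, stood at 114 ± 22 against 125 CPM. The 10 G2 and M phase genes, which act in chromosome condensation and mitosis, summed to 222 ± 44 CPM, 8.6% ± 2.0 of the TA sum of 2613 CPM. Every one of those 10 genes was lower than in TA cells. Mki67, a marker of dividing cells, stood at 11.6, 30.3 and 24.2 CPM in the controls and 19.2, 27.1, 32.9 and 32.4 CPM in the mutants, against a mean of 279 CPM in TA cells. The split of the list into phases was made after its values were seen. Replication genes outside the list did not all stay near TA levels. Pclaf was found in 20.7% of thinned Transitional and 68.0% of TA cells, while Hells was closer (24.1% against 29.6%). The replication-dependent histone genes Hist1h2ap (4.8 against 154 CPM) and H2ac8 (13.5 against 264 CPM) were far lower than in TA cells.

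The same held per cell. At 5000 UMIs, 17.3% of Transitional cells and 24.3% of TA cells held 5 or more UMIs of the S phase genes, but 4.71% and 86.6% held 5 or more UMIs of the G2 and M phase genes. Both shares were at most 1.29% in Immature and Aire-expressing cells. An Mki67 UMI was found in 9.7% of Transitional cells, 64.0% of TA cells and 0.2% of Tuft cells. Whether the S phase UMIs come from cells that were copying their DNA was not measured.

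**Figure D2:**
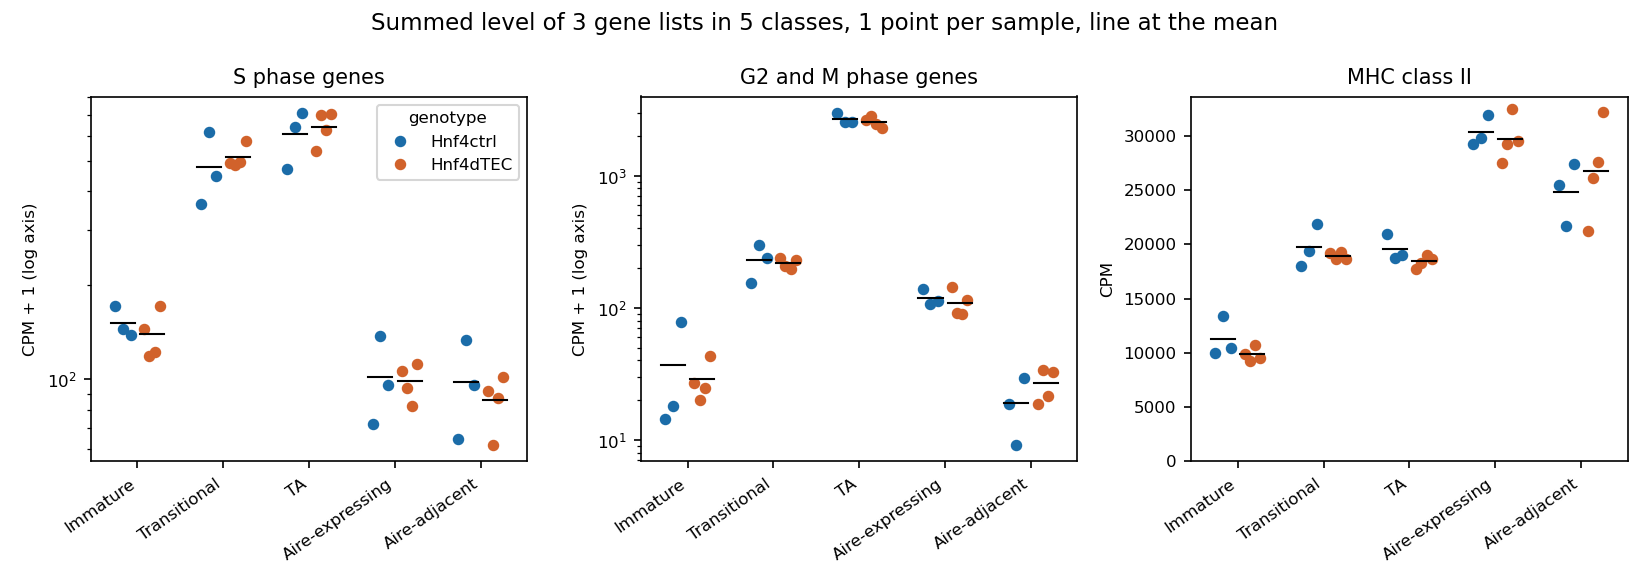
Summed CPM of the S phase, G2 and M phase and MHC class II gene lists in 5 classes, 1 point per sample and a line at each group's mean (log axes for the first pair, a linear axis for MHC class II). Transitional cells lie near TA cells for S phase and MHC class II genes and about an order of magnitude below them for G2 and M phase genes.

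Against all other annotated cells, 46.8% of which were Tuft cells, Ccnd2 led the genes that were higher. Ccnd2 (chr6:127125162-127152193, mm10) encodes cyclin D2, which drives cells from G1 into S phase. It stood at 1296, 1154 and 1207 CPM in the controls and 1253, 1357, 1375 and 1322 CPM in the mutant samples, a mean of 1281 CPM against 163 CPM in the other cells, which is a within-sample log2 difference of 2.96 ± 0.35 (SD, n = 7, with 5 CPM added to both). Cyclin D1 (Ccnd1) stood at 190 against 31.0 CPM. Ccnd2 was found in 89.3% of thinned Transitional cells, 86.8% of TA, 36.1% of Immature and 4.0% of Tuft cells.

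The other 18 genes of the leading 20 had log2 differences of 2.28 to 2.93. They included Hells, a chromatin remodeller of the replication period (101 against 13.9 CPM), and the growth factor midkine, Mdk (707 against 131 CPM). Neither was particular to Transitional cells. At 5000 UMIs, Hells was found in 24.1% of Transitional and 29.6% of TA cells. Mdk was found in 80.4% of Transitional, 81.0% of TA and 77.0% of Immature cells. For the other leading genes, the pooled comparison does not show whether they are particular to the class. Against TA cells, 13 of 3518 genes (0.37%) were at least 2-fold higher in every sample. Tpm2 (772 against 124 CPM), Lgals1 (321 against 48.7 CPM) and, in the comparison with TA, Tagln (78.8 against 15.3 CPM) encode a tropomyosin, galectin-1 and the actin-binding protein transgelin. Cdh22 and Cdhr1 are members of the cadherin family, and Kcnn3 is a calcium-activated potassium channel. The transcription factors Mafa (83.6 against 12.0 CPM) and Nkx6-2 (191 against 34.7 CPM) are known from pancreatic islet and neural cells. Gm49708 (638 against 81.0 CPM) and Gm15943 (160 against 19.5 CPM) are non-coding genes without a known role, and Gm15943 is annotated as antisense, so that its UMIs rest on the strand used in counting. Mybpc1, Grp, Angptl2, Mmp9, Khdrbs2, Shisa9 and Tmem158 made up the rest, with Tmem158 at 683 against 137 CPM.

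In all, 176 of 4458 genes (3.95%) were at least 2-fold higher in Transitional cells than in the other cells in every sample, and 632 (14.2%) at least 2-fold lower. When the other classes were given equal weight, the counts were 330 and 226. The 10 genes with the lowest differences were Stxbp5l, Spink5, Klk1, Krtdap, Car8, Spink1, Rgs13, Mctp1, Bmx and Gm94. They include genes of skin (Spink5, Krtdap), secretory epithelium (Klk1, Spink1) and tuft cells (Rgs13, Bmx). Krtdap stood at 12.6 against 618 CPM and Rgs13 at 32.4 against 933 CPM.

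The mimetic programmes were low. Of 15 classes, Transitional cells ranked 15th for the summed entero-hepato list (27.8 ± 7.8 CPM against 5661 in Entero-hepato cells) and for the ciliated list (20.6 ± 5.4 CPM). They ranked 14th for the tuft (392 ± 191 CPM), secretory (152 ± 86), keratinocyte (124 ± 28) and kallikrein (10.7 ± 4.6) lists. They ranked 7th for the neuroendocrine list (244 ± 34 CPM) 6th for the microfold list (1674 ± 119 CPM against 22698 in Microfold cells) and 6th for the muscle list (122 ± 26 CPM), where Ttn, titin, made up 94.5 CPM. Insm1, a neuroendocrine lineage factor, stood at 173 ± 21 CPM against 305 CPM in TA and 12.1 CPM in Immature cells. The 22 lineage factors of mimetic cells together summed to 504 ± 23 CPM, 88.5% ± 10.1 of the TA sum and 83.6% ± 5.3 of the Aire-expressing sum.

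Genes of antigen presentation fell on both sides. The MHC class II list summed to 19325 ± 1237 CPM, 186% ± 21 of Immature and 64.6% ± 3.6 of Aire-expressing cells, and stood at 102% ± 9 of TA cells. Cd74, the invariant chain that guides class II molecules, made up 10314 CPM of it. Ciita, the master regulator of class II genes, had its highest level of the 15 classes in Transitional cells (176 ± 18 CPM against 167 in TA and 151 in Aire-expressing cells), a lead over TA cells that is below 1 SD. The MHC class I list ranked 13th with 7213 ± 332 CPM. H2-K1, which encodes the protein bound by the tag antibody, stood at 2131 ± 106 CPM, against 1976 in TA, 2787 in Immature and 2425 in Aire-expressing cells. The interferon response list summed to 441 ± 29 CPM, 20.8% ± 1.6 of the Immature sum. The dissociation stress list, immediate early and heat shock genes, summed to 1500 ± 279 CPM, 40.2% ± 7.1 of the Immature and 148% ± 36 of the TA sum. Immature cells also had the lowest median UMI count, and the part of these differences in the other comparisons was not tested.

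Tag counts per cell, a reading of surface H2-Kb not used to make the classes, were higher in Transitional than in Aire-expressing cells. H2-K1 RNA, given above, was lower in Transitional than in Aire-expressing cells. The median tag count per Transitional cell was 2194, 2282 and 961 UMIs in the controls and 1102, 1718, 695 and 1888 in the mutants. In Aire-expressing cells of the same samples it was 1271, 1600 and 901, and 783, 952, 468 and 1461. The mean within-sample log2 difference was 0.53, higher in 7 of 7 samples (two-sided exact sign-flip permutation, p = 0.0156, the smallest that 7 samples allow, adjusted p = 0.0469 over 3 comparisons). Against TA cells the difference was 0.19 (higher in 6 of 7 samples, exact permutation p = 0.0781, adjusted p = 0.109), and against Immature cells 0.18 (6 of 7, exact permutation p = 0.109, adjusted p = 0.109). With any single sample left out the Aire-expressing difference stayed between 0.47 and 0.60, with an adjusted p of 0.0938 in 6 of the 7 cases (exact permutation over 6 samples). Over 6 samples this test gives no p below 0.0313, which adjusts to 0.0938 where only 1 of the 3 comparisons reaches it. Without control 3 the adjusted p was 0.0313 in all 3 comparisons (exact permutation), with differences of 0.60 against Aire-expressing, 0.26 against TA and 0.26 against Immature cells. The tag also differs in amount between samples, and cell size was not measured.

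NF-kB signalling, which drives mTEC maturation, and Notch signalling, which acts on early mTEC, were read from lists of 18 and 14 genes. The NF-kB list summed to 2567 ± 241 CPM, 137% ± 12 of Immature and 77.0% ± 4.5 of Aire-expressing cells. Tnfrsf11a, the receptor RANK, stood at 329 ± 34 CPM against 236 in TA, 283 in Immature and 262 in Aire-expressing cells. The inhibitor Nfkbie had its highest level of the 15 classes in Transitional cells, 112 ± 17 CPM, next to 110 CPM in TA cells, a gap below 1 SD. The Notch list summed to 365 ± 48 CPM, 43.8% ± 7.5 of Immature and 162% ± 22 of TA cells. Hes1, a Notch target, stood at 46.9 ± 12.2 CPM against 14.8 CPM in TA and 222 CPM in Immature cells, and Mfng, a modifier of Notch receptors, at 44.1 ± 5.8 CPM against 16.7 and 7.1 CPM.

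Against TA cells alone the differences were few: 13 of 3518 genes (0.37%) were at least 2-fold higher in every sample and 78 (2.22%) at least 2-fold lower. The 8 genes with the highest mean difference were Ccl21a, Fbxo32, Wfdc18, Gm15943, Mmp9, Adgrl3, Tagln and Igfbp5. Wfdc18, a small secreted protein of the WAP family, stood at 5214 against 912 CPM, but 67.6% of thinned Tuft cells also held a Wfdc18 UMI. The 8 lowest were Ube2c, Nusap1, Hist1h2ap, H2ac8, Hmmr, Birc5, Cdc20 and Cenpf, all genes of mitosis or replication-dependent histones. Ube2c, which helps to end mitosis, stood at 12.8 against 432 CPM.

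Against Immature cells, 154 of 4380 genes (3.52%) were at least 2-fold higher in every sample and 441 (10.1%) at least 2-fold lower. Those with the highest mean difference included Aire, Gm47938, Npsr1, Cdx1, Utf1, Pclaf and Tmem158. Cdx1, an intestinal regulator, stood at 234 against 9.9 CPM. The lowest were Ccl11, Mgp, Ifit3, Isg15, Gm8113, Cxcl14, Gsn and Mill1. Ccl11, eotaxin, held 4 UMIs in all 390 Transitional cells against a mean of 598 CPM in Immature cells, and the interferon-induced gene Ifit3 held 1 UMI against 177 CPM.

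Against Aire-expressing cells, 79 of 3798 genes (2.08%) were at least 2-fold higher in every sample and 222 (5.85%) at least 2-fold lower. Wfdc18, Krt5, Tagln, Ccl21a, Mcm7, Cald1, Pclaf and Tpm2 had the highest mean difference. Genes with the lowest were S100a8, S100a9, Mt4, Nts, Fabp6, Calca, Csn2 and Obp2a, which are best known from neutrophils, skin, nerve, gut, endocrine cells, mammary gland and nasal epithelium. S100a8 stood at 13.9 against 2298 CPM and the milk casein Csn2 at 32.6 against 1098 CPM. Obp2a had no UMI in 7656315 Transitional UMIs, which allows up to 0.392 CPM (3 counts), against 186 CPM in Aire-expressing cells.

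The whole profile lay closest to TA cells. Across 10646 genes the mean Spearman correlation per sample, a description over genes that are not independent, was 0.914 with TA, 0.801 with Aire-expressing, 0.774 with Immature, 0.760 with Muscle (6 samples) and 0.722 with Aire-adjacent cells. Each Transitional cell was then scored against the summed profile of every class in the other 6 samples. Of 390 cells, 270 (69.2%) fitted Transitional best, 64 TA, 44 Immature, 8 Aire-adjacent, 3 Aire-expressing and 1 Muscle. By the same measure 88.7% of TA, 96.9% of Immature and 75.5% of Aire-expressing cells returned to their own class. With Transitional left out as a choice, 296 cells (75.9%) fitted TA best, 72 (18.5%) Immature, 11 Aire-expressing, 8 Aire-adjacent and 3 Muscle. The classes had been made from the cells of all samples, so this shows how separate the class is and is no test of it.

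**Figure D3:**
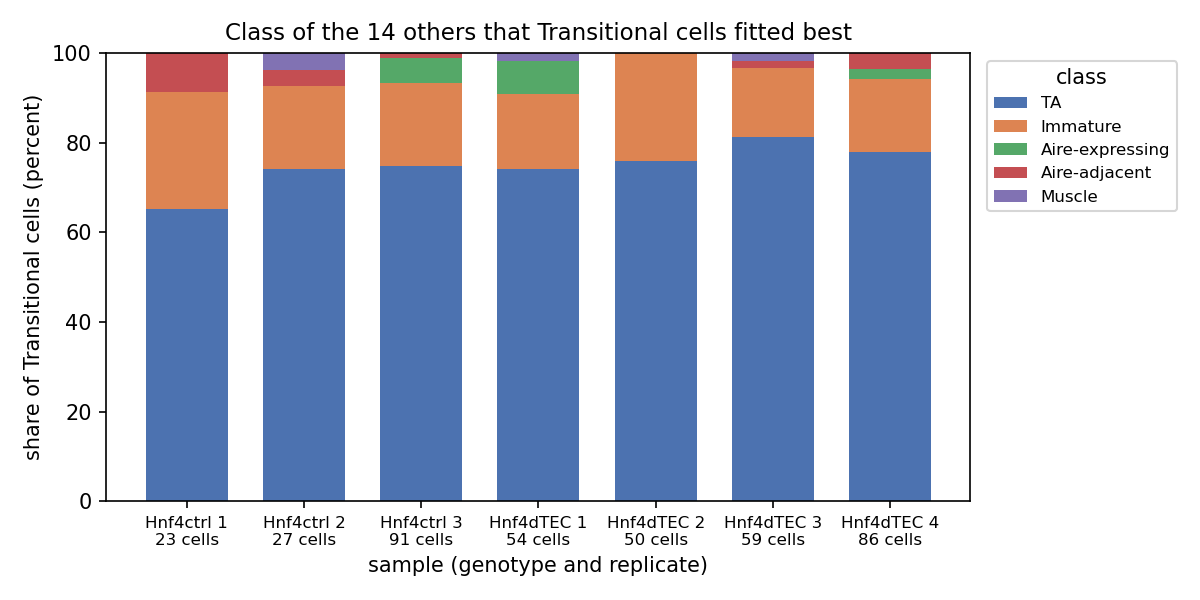
Share of Transitional cells in each sample (percent, with the number of cells under each bar) by the class among the 14 others whose profile, taken from the other samples, they fitted best. TA takes 65 to 81% of the cells in every sample and Immature cells 15 to 26%.

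Between Immature and Aire-expressing cells, Transitional cells lay further along the distance for genes that are lower at the Aire stage than for genes that are higher there. For the 414 genes at least 4-fold lower in Aire-expressing than in Immature cells, Transitional cells stood at a median of 74.4% of the log2 distance, and 86.2% of these genes were past the midpoint. For the 355 genes at least 4-fold higher in Aire-expressing cells, the median was 30.1%, 36.3% were past the midpoint. TA cells stood at 102% and 49.6% of the same distances. The measure was chosen after the levels were seen, and it says nothing about the order in which single cells pass through the classes.

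Genotype was compared next, which asks whether loss of Hnf4a and Hnf4g alters these cells. The targeted genes were nearly silent here. Hnf4a (chr2:163506808-163572910, mm10) had 1 UMI in all 390 cells, in a mutant sample. Hnf4g (chr3:3508030-3658052, mm10) had 1, 1 and 1 UMIs in the control group and 7, 2, 10 and 3 in the mutant samples, 25 in all. Its level of 3.4 CPM was the lowest of the 15 classes, below TA (9.4 CPM), Immature (37.2), Aire-expressing (80.5) and Aire-adjacent cells (230). At 5000 UMIs 1.8% of Transitional cells held an Hnf4g UMI. Reads from 3' ends outside the deleted parts do not show whether the genes were deleted, so these counts check no label.

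No difference in the share of Transitional cells between genotypes passed the test, and the groups overlapped. The share was 2.87, 2.95 and 5.76% of annotated cells in the controls and 3.27, 3.63, 3.97 and 6.26% in the mutants, with exact 95% binomial intervals, which cover counting error only, of 1.83 to 4.28% for the first and 5.04 to 7.68% for the last. The means were 3.86% ± 1.65 (SD, n = 3) and 4.28% ± 1.35 (SD, n = 4, two-sided exact permutation p = 0.629, where 35 splits allow 0.0286 at the least). The edgeR log2 difference was 0.12 (SE 0.33, adjusted p = 0.981 over 15 classes). It turned to -0.06 without control 1, -0.04 without control 2, -0.13 without mutant 4 and -0.06 with the replicate block, and rose to 0.55 without control 3. Of Immature, TA, Aire-expressing and Transitional cells together, Transitional cells were 18.5% ± 3.5 in the controls, with the mutant samples between 18.2 and 20.9%.

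No gene differed by genotype in Transitional cells at an adjusted p of 0.05 (edgeR quasi-likelihood test, Benjamini-Hochberg): 0 of 9262 genes tested (0%), with 466 (5.03%) at an unadjusted p under 0.05 and DESeq2 calling 1 of 23429 (0.00427%, 288 or 1.23% at an unadjusted p under 0.05). Without a filter on low counts edgeR called 115 of 23440 (0.491%), 39 higher (0.166%) and 76 lower (0.324%), with 1108 (4.73%) at an unadjusted p under 0.05. The values of the 5 genes per direction with the smallest p follow, as CPM on library sizes scaled by edgeR's TMM method. In 616 of the 9262 genes (6.65%) the 2 groups did not overlap, 304 of them (3.28%) lower in every mutant sample and 312 (3.37%) higher.

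**Figure D4:**
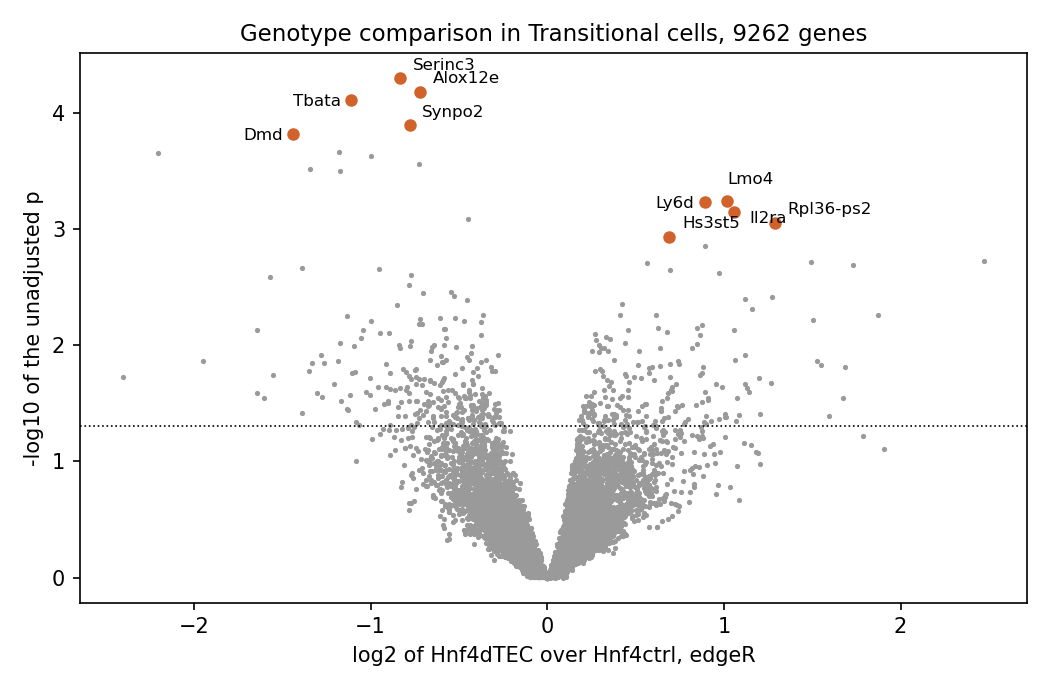
Genotype comparison of 9262 genes in Transitional cells: log2 of mutant over control against the -log10 of the unadjusted p, with the 5 genes of smallest p per direction named and a dotted line at 0.05. The lowest p values belong to Serinc3, Alox12e and Tbata on the lower side, and no gene passes after adjustment.

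Serinc3, a membrane protein of the serine incorporator family, stood at 102, 87.9 and 92.7 CPM in the controls and 54.9, 52.0, 57.7 and 46.3 CPM in the mutants. The groups did not overlap, and the log2 difference was -0.83 (SE 0.15, adjusted p = 0.240, edgeR). Serinc3 lies at chr2:163623272-163645131 (mm10, minus strand), 50.4 kb from Hnf4a. In TA cells of the same samples its log2 difference was -0.68 (unadjusted p = 0.000405), in Aire-expressing cells -0.78 (unadjusted p = 0.000136) and in Immature cells 0.06 (unadjusted p = 0.814), and no adjusted p in these classes passed 0.05 (edgeR). The difference between the Transitional and the Immature effect was -0.90 (SE 0.27, unadjusted p = 0.00353, adjusted p = 0.803, edgeR).

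Tbata, a gene of thymic epithelium and brain, stood at 390, 311 and 261 CPM in the controls and 230, 112, 123 and 119 CPM in the mutants. The groups did not overlap, and mutant 1 stood apart from the other mutants. The log2 difference was -1.11 (SE 0.21, adjusted p = 0.240, edgeR). DESeq2 gave -1.11 with an adjusted p of 0.0199, and without mutant 1 edgeR gave -1.40 with an adjusted p of 0.00175; over all alternatives with an adjusted p it ran from 2.02e-10, without a filter on low counts, to 0.615. In Aire-expressing cells the log2 difference was -0.20, in TA cells -0.14 and in Immature cells 1.00, all short of an adjusted p of 0.05. The Immature value leans on mutant 3, which stood at 432 CPM there. All other mutants lay within the control range of 38.4 to 127 CPM (plain CPM). The Transitional effect minus the Immature effect was -1.88 (unadjusted p = 0.00501, adjusted p = 0.861, edgeR), and it includes that sample.

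Tbata is 1 of 9 genes of the cortical thymic epithelium list, which holds genes of the other thymic compartment. Of its 6 tested members none was called and all 6 were lower in the mutants, with a median log2 difference of -1.08 beside 0.01 over all genes tested. Of all 9262 genes, 4550 were lower. An unadjusted p under 0.05 was found for 5 of the 6 members, beside 466 (5.03%) of all genes. Ccl25, a chemokine for thymocytes, stood at 33.9, 24.5 and 30.9 CPM against 13.0, 6.2, 15.7 and 11.4 CPM (log2 -1.34, adjusted p = 0.266, edgeR). Psmb11, the thymoproteasome subunit, stood at 22.6, 2.0 and 12.2 CPM against 10.0, 0, 0 and 0 CPM. The list sum was 832, 604 and 625 CPM in the controls and 453, 369, 375 and 413 CPM in the mutants, with no overlap. Tbata, picked above by its p in this same comparison, is counted in all these values. It made up 400, 307 and 252 CPM of the control sums and 221, 108, 116 and 116 CPM of the mutant sums. With Tbata taken out of the sums, the groups overlapped narrowly. The list was chosen with earlier results of these data known, so these counts are a description.

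Of the others on the lower side, Alox12e, an epidermal lipoxygenase, stood at 147, 151 and 183 CPM against 109, 104, 90.9 and 96.1 CPM (log2 -0.72, SE 0.14, adjusted p = 0.240, edgeR). Synpo2, an actin-binding protein, had a log2 difference of -0.78 and Dmd, dystrophin, -1.44 (both adjusted p = 0.266, edgeR). In all 3 genes the groups did not overlap.

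On the higher side, Lmo4, a transcriptional cofactor, stood at 19.8, 18.4 and 17.5 CPM in the controls and 37.0, 40.6, 41.9 and 29.7 CPM in the mutants (log2 1.02, SE 0.24, adjusted p = 0.415, edgeR). Ly6d, a surface protein of epithelial and lymphoid cells, stood at 48.0, 73.6 and 98.5 CPM against 196, 138, 150 and 117 CPM (log2 0.89, SE 0.21, adjusted p = 0.415, edgeR). Its log2 difference was -0.94 in Immature, -0.14 in TA and 0.72 in Aire-expressing cells. The Transitional effect minus the Immature effect was 1.88 (SE 0.32, adjusted p = 0.113, edgeR). Minus the TA effect it was 1.17 (SE 0.36, unadjusted p = 0.00506, adjusted p = 0.991, edgeR). Minus the Aire-expressing effect it was 0.28 (SE 0.29, unadjusted p = 0.349, edgeR). Il2ra, the interleukin 2 receptor alpha chain (log2 1.06), Rpl36-ps2, a ribosomal pseudogene whose UMIs cannot be told from its parent gene (1.29), and Hs3st5, a heparan sulfate sulfotransferase (0.69), followed with adjusted p of 0.477, 0.511 and 0.637 (edgeR). Groups did not overlap in any of these 5 genes.

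**Figure D5:**
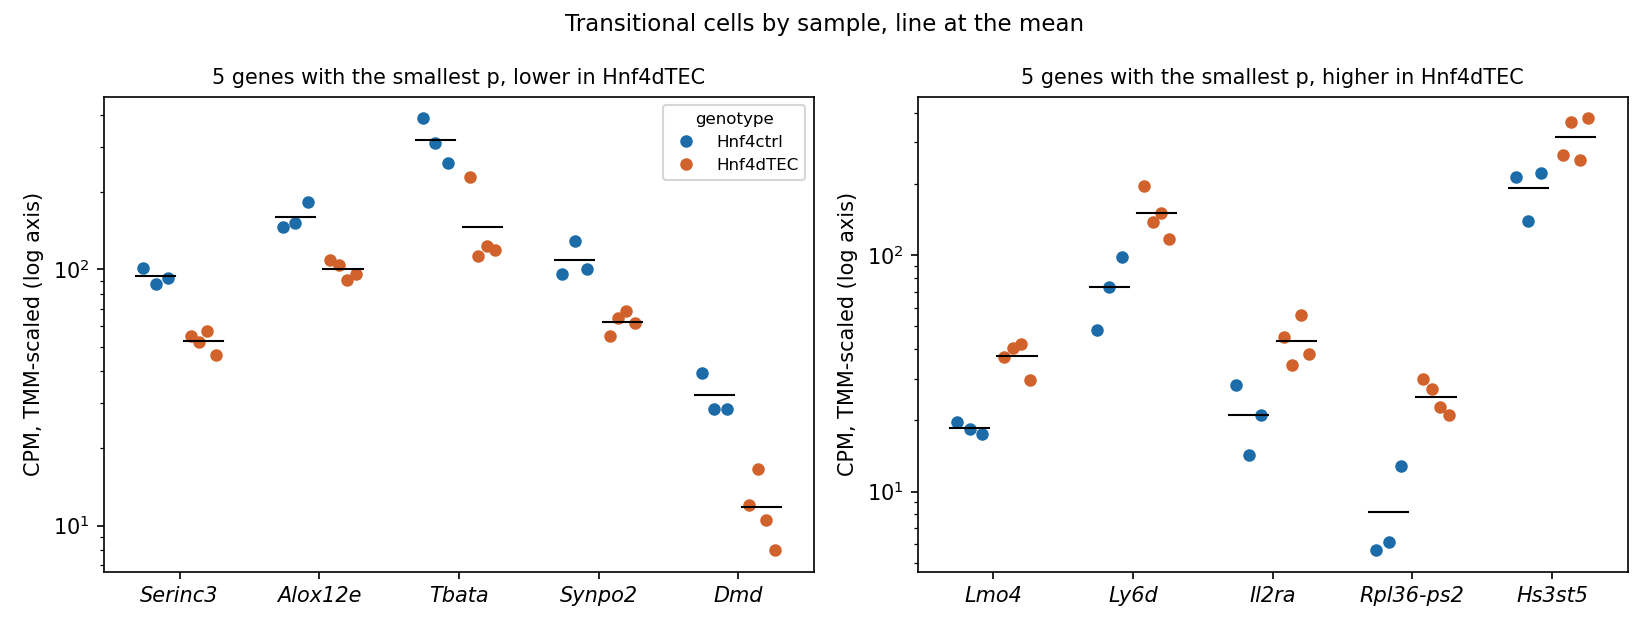
Level by sample (CPM scaled by TMM, log axis) of the 5 genes per direction with the smallest p in the genotype comparison, with 1 point per sample and a line at each group's mean. Control and mutant samples do not overlap in any of the 10 genes, none of which passed an adjusted p of 0.05 in the edgeR test. The genes were picked by p in this same comparison, so the separation follows in part from that choice. Of all 9262 genes, 616 (6.65%) did not overlap.

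For the genes used above to describe the class, no genotype difference passed the test. Aire had a log2 difference of 0.03 (SE 0.14), Fezf2 -0.05 (SE 0.12), Ccnd2 0.17 (SE 0.09), Mki67 0.31 (SE 0.28) and Ccl21a -0.45 (SE 0.21), with adjusted p of 0.964 or more (edgeR). None of the 26 lists had a called member. The Aire-stage list had a median log2 difference of -0.12 over 5 tested members, the immature mTEC list -0.05 over 8, the proliferation list 0.13 over 19, the MHC class II list -0.04 over 11 and the MHC class I list -0.03 over 10. The tuft list had the highest median of the lists with 8 or more tested members, 0.72 over 8, and its sum ran from 183 to 467 CPM in the controls and 228 to 739 CPM in the mutants, so that the groups overlapped. Of its 8 tested members 7 were higher in the mutants, beside 4712 of all 9262 genes. An unadjusted p under 0.05 (edgeR) was found for 4 of the 8, beside 466 (5.03%) of all genes. Of the entero-hepato list, which holds Hnf4a, Hnf4g and genes of gut and liver epithelium, 1 of 14 genes had enough UMIs to be tested.

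Depth, gene number, mitochondrial and ribosomal shares and tag counts per Transitional cell were compared over the samples as well. The median cell held 15429 to 19843 UMIs in the controls and 19572 to 21433 in the mutants, with means of 17840 ± 2235 and 20597 ± 880 (two-sided exact permutation p = 0.114, adjusted p = 0.343 over 5 measures). The share of cells that fitted TA best among the 14 other classes was 71.3% ± 5.3 in the controls and 77.3% ± 3.1 in the mutants (exact permutation p = 0.171, adjusted p = 0.457 over 4 classes).

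Whether the genotype effect differed between Transitional and other classes was tested as an interaction, with the sample as a block. Against TA cells 1 of 10929 genes (0.00915%) was called (406 or 3.71% at an unadjusted p under 0.05), against Immature cells 0 of 8865 (0%, 420 or 4.74% unadjusted) and against Aire-expressing cells 0 of 12864 (0%, 501 or 3.89% unadjusted). The called gene was S100a9 (chr3:90692632-90695721, mm10), a calcium-binding protein abundant in neutrophils and in mature epithelia. It had 0, 4 and 39 UMIs in the Transitional cells of the controls and 3, 0, 3 and 3 in those of the mutants. In TA cells it had 0, 18 and 166 UMIs in the controls and 129, 3, 303 and 195 in the mutants. The difference of the 2 genotype effects was -4.46 on the log2 scale (SE 0.45, adjusted p = 0.000409, edgeR), and without control 3, which holds most of the control UMIs, it was -4.75 with an adjusted p of 0.220. The groups overlap in both classes.

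Among the genes of smallest p in these interactions, Hs3st5 (1.15), Hamp2 (4.52), Bcl2a1b (3.07), Hbb-bs (3.61) and Rgs13 (2.33) had a higher effect in Transitional than in TA cells on the log2 scale, and Nppc (-3.98), Gm26885 (-3.49), 1600010M07Rik (-1.89) and Iigp1 (-1.33) a lower one, with adjusted p of 0.121 to 0.585 (edgeR). Against Immature cells Ly6d (1.88), Plac8 (2.41), Lsamp (3.05), Ubd (0.73) and Vcam1 (0.87) were higher and Ddx60 (-2.14), Ccn1 (-2.84), Gm6999 (-1.88), Dnajb1 (-1.20) and Postn (-3.86) lower, with adjusted p of 0.113 to 0.803 (edgeR). Against Aire-expressing cells Fat3 (4.09), Gulp1 (2.17), Trbc2 (5.36) and Fras1 (2.07) were higher and Ccl1 (-4.67), Sfn (-1.02) and Prph (-3.05) lower, with adjusted p of 0.532 to 0.899 (edgeR). Mgat4e had 0 UMIs in Transitional cells of the controls and 88 in those of the mutants, against 60 and 9 in Aire-expressing cells (adjusted p = 0.137, edgeR), and Defa38 and Defa22 had 8 and 14 against 0. Folds of genes with 0 UMIs in a group depend on the prior count and are not given. Several of these values rest mostly on control 3. Of the control UMIs it held 587 of 589 of Fat3 in Aire-expressing cells. In TA cells it held 314 of 324 of Hbb-bs and 211 of 236 of Hamp2. In Transitional cells it held all 27 of Ccl1 and all 14 of Defa22.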

How the data were processed

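The authors deposited UMI counts per gene and barcode (Cell Ranger 6.1.0 and Seurat 4.0.2, build mm10, per the submitters' processing notes; the matrix header names 7.0.0) and a table that gives each of 9185 cells its class and hash tag. Counts were summed per sample and class and divided into CPM. Genotype and interaction were tested with edgeR 4.0.16 (filterByExpr, TMM, quasi-likelihood) in R 4.3.3, with DESeq2 1.42.0 as an alternative, and the edgeR fits were tested on simulated data. Samples with at least 10 Transitional cells entered, which was all 7. Named genes were the targeted genes, the 5 per direction with the smallest p, and the 20 highest and 10 lowest (8 and 8 for single classes) by within-sample log2 difference of CPM plus 5 with at least 50 CPM on the higher side. The class, the 26 lists of 300 genes and these rules were chosen with earlier results of these data known. Coordinates come from GENCODE mouse release 21. Scrublet was run in scanpy 1.11.5. No 2 samples held the same counts within sampling noise: over all 21 pairs of samples, within and between groups, chi-square per degree of freedom was 1.86 to 3.26. Some genes that these rules name are not reported here.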

Additional observations from a re-analysis of the deposited data

Results flagged for a closer look

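The genotype effect on S100a9 differed between Transitional and TA cells by the interaction test (log2 -4.46, adjusted p = 0.000409, edgeR, 1 of 10929 genes), on the UMIs given above. Among 52 values checked in the 4 mutant samples, 5 had a sample far from the other 3, where chance alone flags about 1 in 20. Mutant 2 had the highest immature mTEC sum (2412 CPM), mutant 3 the highest sum of mimetic lineage factors (549 CPM), mutant 4 the lowest interferon response sum (421 CPM) and the highest S phase sum (578 CPM), and mutant 1 the highest Tbata (230 CPM, TMM-scaled). The first 4 are sums of plain CPM.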

How the results depend on the processing

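The count of genes that differed by genotype in Transitional cells was 0 with TMM, 0 with RLE size factors, 0 without marked doublets and mismatched cells, 1 with DESeq2 (Tbata) and 115 of 23440 without a filter on low counts (39 higher, 76 lower). Without that filter edgeR's test kept no spread particular to a gene, and the genes called had a median of 103 UMIs, 57 of them being among the 9262 tested with the filter. Leaving out single samples gave 0 to 2 genes: Cdkn1c and Egr1 (named after their values were seen) without control 3, and Tbata without mutant 1. Interaction counts without the filter were 79 for TA, 42 for Immature and 99 for Aire-expressing cells, and with single samples left out 1 to 3, 0 to 3 and 0 to 2. The cause was not tested. The share difference of 0.12 ran from -0.13 to 0.55 with single samples left out and was -0.0595 with the replicate block. Same-numbered samples are not said to be paired, and their deviations correlated at -0.13, 0.05 and 0.10 over 2674 genes; the block gave 0 genes by genotype. Tag counts against Aire-expressing cells gave 0.47 to 0.60, against TA 0.14 to 0.26 and against Immature 0.14 to 0.26 with single samples left out. Without control 3 all 3 had an adjusted p of 0.0313 (exact permutation), the smallest that 6 samples allow. Without any other sample none was below 0.0938, to which that floor adjusts where only 1 comparison reaches it. Genes 2-fold higher or lower than all other cells numbered 330 and 226 with equal weight per class. The mitochondrial share by genotype turned from -0.0349 to 0.0540 (log2) with means over cells. With 23 and 27 cells in control samples 1 and 2, low genes could not be tested.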

Other observations

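Serinc3 led to a look at the genes beside the targeted ones, chosen after its value was seen. Within 1 Mb of Hnf4a, 14 genes were tested in Transitional cells, and 2 of them had an unadjusted p under 0.05 by genotype (edgeR): Serinc3 itself (log2 -0.83) and Ada (log2 -1.08, unadjusted p = 0.0459). Over all genes tested 466 of 9262 (5.03%) had such a p. The median of the 14 was -0.06. Ttpal, the nearest tested gene at 29.4 kb, had 0.50 (unadjusted p = 0.289), and Pkig, at 85.5 kb, -0.12. No tested gene lay within 1 Mb of Hnf4g. In all other annotated cells together Serinc3 stood at 122, 111 and 111 CPM in the controls and 99.6, 94.9, 104 and 90.1 CPM in the mutants, and in Aire-adjacent cells at 126, 163 and 154 against 80.4, 55.5, 76.7 and 98.8 CPM. The groups did not overlap in either, but all other annotated cells include the Aire-adjacent, TA and Aire-expressing cells. The share of all genes without overlap was not counted in these sets. In Immature cells the Serinc3 levels of the groups overlapped, 50.8 to 83.8 CPM in the controls and 52.3 to 79.5 CPM in the mutants.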
